A study of Homo sapiens with 8 samples.

Results

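Centrosome, spindle and microtubule motor genes were examined as a group of 44 protein-coding genes, taken by name, in lists of METTL3-associated RNA regions from prostate cancer cells. The 44 are among 19974 protein-coding genes of chromosomes 1 to 22 and X, and a peak was counted for a gene when it lay whole within the gene's GRCh38 span, on either strand. The genes were proposed when results of these data were already known, so a high share of them with a peak is a description of the choice and was not tested. RNA immunoprecipitation and sequencing (RIP-seq) was done in LNCaP cells, which respond to androgen, and in PC3 cells, which do not depend on it; both are established lines from prostate cancer metastases. Each line has METTL3 IP libraries made with an anti-METTL3 antibody and input libraries, 2 replicates of each, which gives 8 samples in 4 groups; 80% of a lysate went to the immunoprecipitation and 10% to the input. No treatment or genetic change is named in the labels. The medium held 20% serum for LNCaP and 10% for PC3, so line and serum cannot be told apart. The deposited data are 1 list of peaks per line without values per library. Every value therefore stands for 1 line, with unknown sequencing depth and no error from replicates, and the identity of the lines cannot be checked against marker genes because no expression levels are given.

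METTL3 is the enzyme that methylates adenosines in messenger RNA to N6-methyladenosine. The centrosome nucleates and anchors microtubules at their minus ends, and in mitosis a pair of centrosomes forms the poles of the spindle. Kinesins, most of which walk to plus ends, and dynein, which walks to minus ends, carry cargo along microtubules and position the spindle, while other proteins bind the ends or the lattice of the filament. Many genes of these families encode long proteins.

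The LNCaP list held 106 peaks on 21 of the 44 genes (47.7%), and the PC3 list 46 peaks on 13 (29.5%). Over all protein-coding genes, 5.62% held a whole peak in LNCaP and 1.83% in PC3. A peak in both lines was present on 11 genes, against 1.16% of all protein-coding genes; 10 had one in LNCaP only, 2 in PC3 only and 21 in neither. Fold enrichment, p-value and FDR are the authors' own values for each peak. The fold is read here as IP over input because of the design; its denominator is not named in the file.

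**Figure D1:**
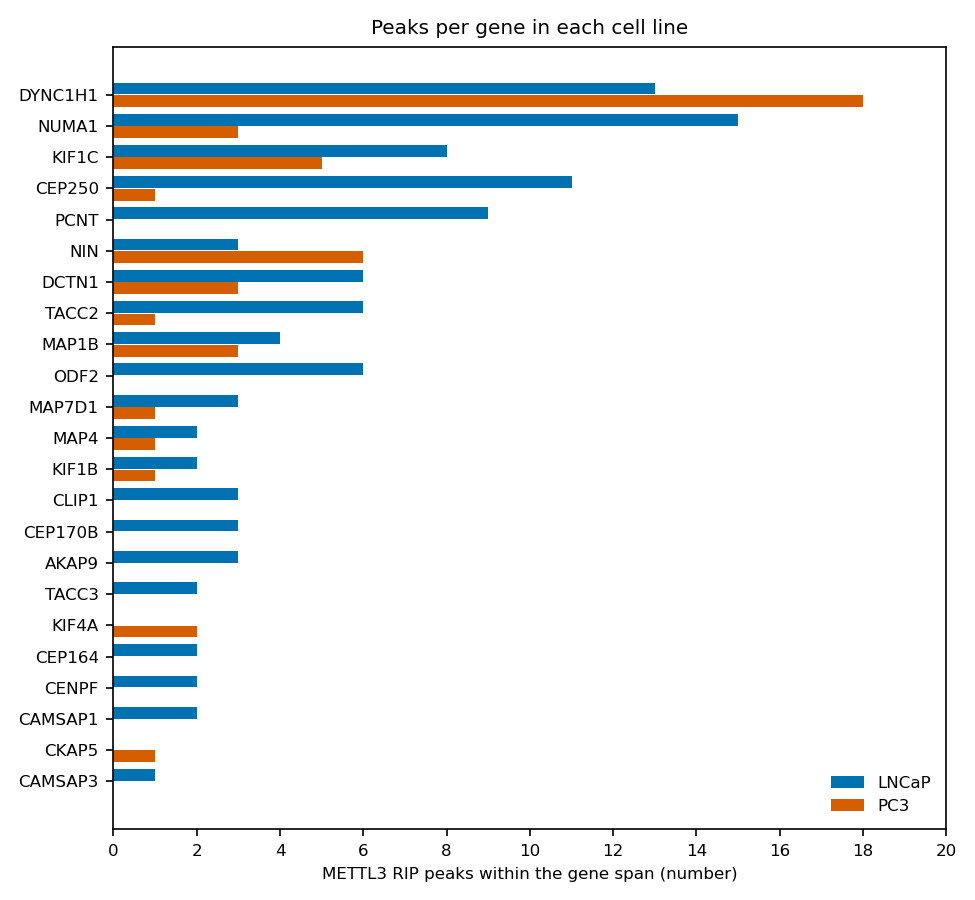
Number of peaks whole within the gene span (x axis) for the 23 genes with a peak in either line, LNCaP in blue and PC3 in orange. DYNC1H1 had 13 and 18 peaks and NUMA1 15 and 3; PCNT had 9 in LNCaP and none in PC3.

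Other genes of like span carried peaks less often, though no test was made. They were matched for span only and not for expression, which the data do not give. The 44 spans ran from 15.0 to 554.4 kb with a median of 92.8 kb, against 24.1 kb for other protein-coding genes. When other genes were weighted to the same classes of span, 8.72% had a peak in LNCaP and 3.13% in PC3. In the class of 100 to 200 kb, 6 of 14 of the genes had a LNCaP peak and 5 a PC3 peak, while 11.8% and 4.59% of 1941 other genes did. In the class up to 25 kb the counts were 3 and 1 of 5, against 2.33% and 0.522% of 10146 other genes. Within the group, span did not separate the genes with a peak from those without, with medians of 91.9 kb for the 23 genes with a peak in either line and 93.1 kb for the 21 with none. KIF26B, the longest, had none.

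**Figure D2:**
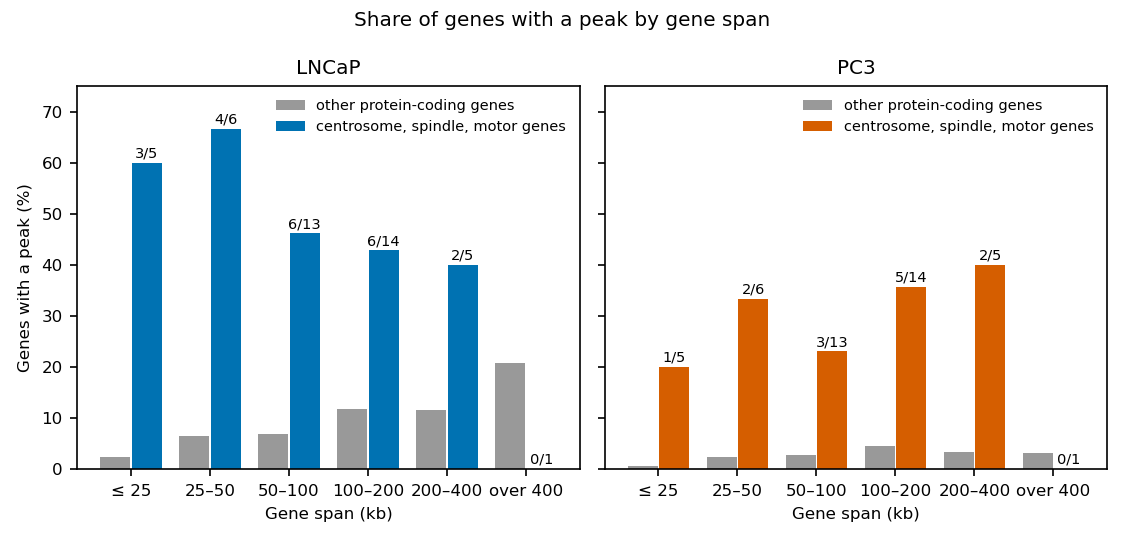
Percent of genes with a peak (y axis) by class of gene span in kb (x axis), other protein-coding genes in grey and the centrosome, spindle and motor genes in colour, with the count above each coloured bar. In every class up to 400 kb the coloured bar is the higher one in both lines; the single gene over 400 kb had no peak.

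A wider list of the same pathways gave lower shares. It held 143 further genes of centrioles, spindle, kinetochore, kinesins, dynein, dynactin and microtubule binding, with a median span of 48.7 kb. Of these, 14 (9.79%) had a peak in LNCaP and 8 (5.59%) in PC3, where other genes as long gave 6.86% and 2.42%. CDK5RAP2 and TPX2 had a peak in both lines, 1.40% of the list, which is near the 1.16% of all protein-coding genes and the 1.52% of other genes as long. CDK5RAP2, which recruits gamma-tubulin complexes to the centrosome, had 6 LNCaP peaks with folds from 3.84 to 18.4 and 3 PC3 peaks with folds from 4.68 to 11.2. TPX2, an activator of Aurora A on the spindle, had 2 LNCaP peaks (folds 3.59 and 4.57) and 4 PC3 peaks (3.76 to 4.59). Further genes with a large fold in LNCaP were TUBGCP6 (33.1), KIF5C (12.7), KIF7 (10.9) and KIF1A (7.56), and in PC3 CLIP2 (9.26), KIF3C (6.41) and KIF2C (5.91). The other dynein and dynactin genes, 25 in number, had a peak on 2 genes in LNCaP and on 0 in PC3. These counts are near the shares over all protein-coding genes, 5.62% and 1.83%.

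Dynein and its activator dynactin carried the most peaks of any role in PC3. DYNC1H1, the heavy chain that forms the motor of cytoplasmic dynein (chromosome 14, 101964573 to 102056443, plus strand), had 13 LNCaP peaks with folds from 3.74 to 17.9 (median 6.96). In PC3 it had 18 peaks with folds from 4.04 to 10.5 (median 6.85), second among all protein-coding genes by number of peaks. On this gene 11 of the 13 LNCaP peaks met a PC3 peak on the same strand and 16 of the 18 PC3 peaks met a LNCaP peak. The peaks of both lines thus lay over the same stretches, beginning at 21.8% and 21.9% of the gene's length and ending at 88.8% and 89.0%, by peak midpoints. A 51 bp peak at 102005064 to 102005114 had the largest PC3 fold of the group, 10.5 with a p of 6.66e-06 and an FDR of 6.80e-06. The LNCaP peak over it, at 102004923 to 102005164, had a fold of 15.1 with a p of 6.46e-10. The smallest PC3 p on DYNC1H1, 1.74e-22, belonged to the peak at 102027781 to 102032349 with a fold of 7.46. The LNCaP peak at 102027806 to 102033071 had a fold of 6.44 and a p of 0.00341, a like fold with a much larger p.

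DCTN1, the large subunit of dynactin that binds both dynein and the microtubule (chromosome 2, 74361155 to 74391866, minus strand), had 6 LNCaP and 3 PC3 peaks. The LNCaP folds were 5.36, 3.84, 3.86, 3.63, 3.94 and 5.42, in the order of their coordinates from 74369401 to 74371139. The PC3 peak at 74369401 to 74370786 (fold 5.53, p of 2.83e-19) covered 5 of these 6, and the peak at 74370811 to 74371574 (fold 4.43, p of 2.76e-11) the remaining one. What appeared as a row of short peaks in LNCaP was thus nearly 1 continuous stretch in PC3. Another PC3 peak, at 74365163 to 74366296 with a fold of 5.09, met none in LNCaP. DYNC2H1, the heavy chain of the ciliary dynein, had no peak in either line.

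**Figure D3:**
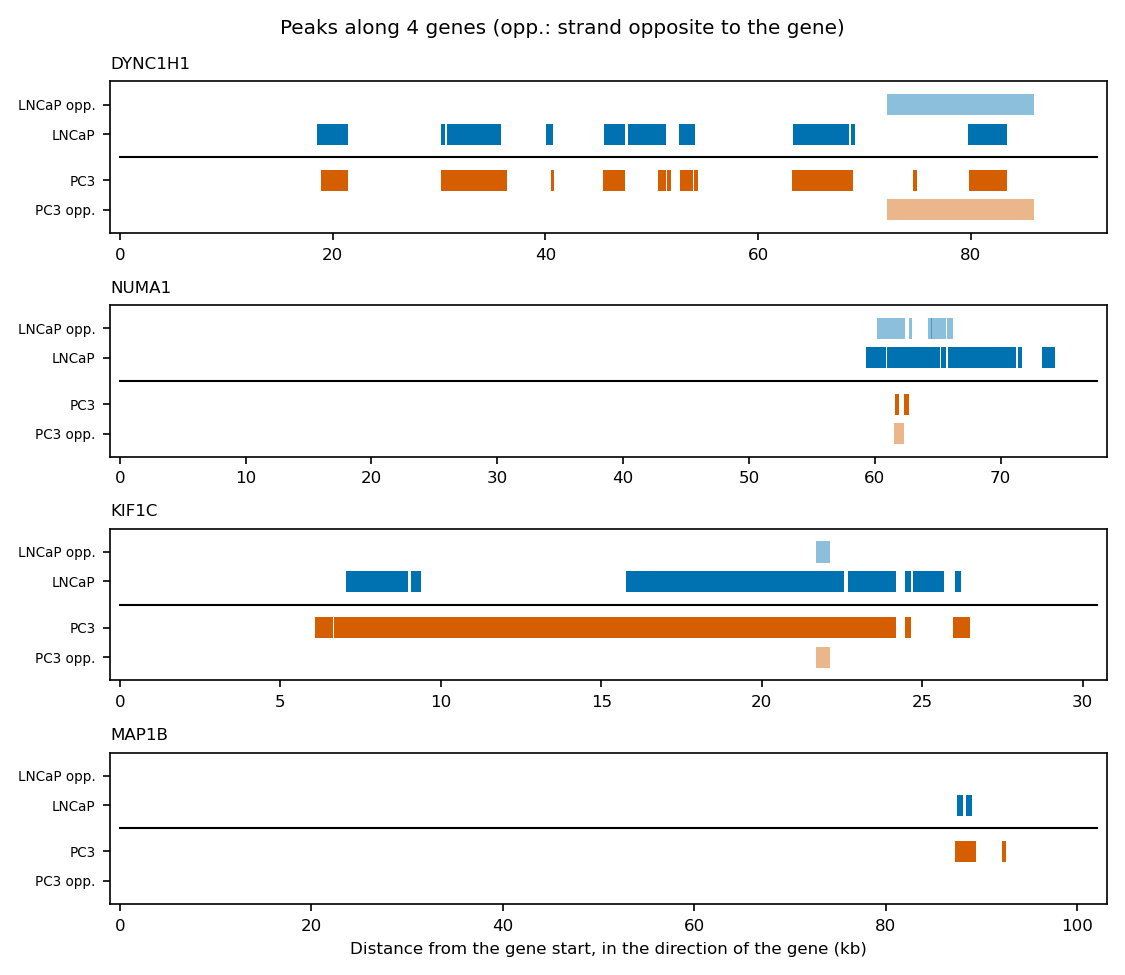
Peaks along DYNC1H1, NUMA1, KIF1C and MAP1B as distance from the gene start in kb (x axis), LNCaP in blue above and PC3 in orange below the line; pale boxes, marked opp., are peaks on the strand opposite to the gene. The 2 lines cover the same stretches of DYNC1H1, whereas NUMA1 has 15 peaks in LNCaP and 3 in PC3.

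Kinesins were divided. KIF1C and KIF1B, plus-end motors that carry vesicles and organelles, had peaks in both lines, against 1.16% of all protein-coding genes. The other interphase kinesins of the group, KIF13B, KIF21A, KIF21B, KIF26A and KIF26B, had none in either. KIF1C (chromosome 17, 4997950 to 5028401, plus strand) had 8 LNCaP peaks with folds from 3.77 to 12.8 and 5 PC3 peaks with folds from 5.21 to 6.28. A single PC3 peak from 5004610 to 5022140 (fold 6.28, p of 1.91e-23, FDR 1.94e-22) spanned 4 of the LNCaP peaks on the plus strand. The peak at 5022415 to 5022590 had the same bounds in both lines, with a fold of 11.0 in LNCaP (p of 0.000118) and 6.28 in PC3 (p of 1.86e-07). KIF1B (chromosome 1, 10210570 to 10381603, plus strand) had LNCaP peaks of fold 8.72 and 6.02 that both touched the PC3 peak at 10296925 to 10297075, which had a fold of 4.94 and a p of 4.77e-08. All 3 lay near the middle of the gene span.

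Among the 5 mitotic kinesins and kinetochore genes, 0 had a peak in both lines. Over all protein-coding genes the share was 1.16%, so 0 of 5 is near the share of all genes. KIF4A, a kinesin of chromosomes and the spindle midzone (X chromosome, 70290104 to 70420886, plus strand), had peaks in PC3 only, at 70343969 to 70402694 (fold 7.43, p of 2.67e-23) and 70403887 to 70404742 (fold 9.83, p of 1.49e-10). The first spans 58726 bp with its introns and was the longest peak on the 44 genes. CENPF, a kinetochore protein, had peaks in LNCaP only, with folds of 5.54 and 3.85 and p-values of 0.000894 and 0.0107. CENPE, KIF14 and KIF20B had none.

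The smallest LNCaP p of the group lay on a spindle pole gene. NUMA1, which brings dynein to the spindle poles and the cell cortex (chromosome 11, 72002864 to 72080542, minus strand), had 15 LNCaP peaks and 3 in PC3. The LNCaP number was the sixth highest of any protein-coding gene, with both strands counted. Of these peaks, 6 in LNCaP and 1 in PC3 were on the plus strand, opposite to NUMA1. Its peak at 72009291 to 72014762 had a fold of 10.6, a p of 4.13e-18 and an FDR of 9.00e-16, which ranked number 12 of the 2616 LNCaP peaks by p. No PC3 peak met it. The PC3 peaks at 72017815 to 72018220 (minus strand, fold 4.50, p of 1.61e-06) and 72018824 to 72018924 (minus strand, fold 5.38, p of 7.01e-07) lay under LNCaP peaks of fold 10.5 and 11.8. All NUMA1 peaks of both lines lay between 77.4 and 95.03% of the gene's length.

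TACC2 and TACC3, which join with CKAP5 on spindle microtubules, both had peaks in LNCaP. TACC2 (chromosome 10, plus strand) had 6 with folds from 4.99 to 6.78. Of these, the peak at 122237973 to 122248700 (fold 6.78, p of 7.66e-05) nearly coincided with the only PC3 peak of the gene, at 122237998 to 122248650 (fold 3.95, p of 3.19e-06). TACC3 had LNCaP folds of 5.15 and 4.95 and no PC3 peak. CKAP5, a microtubule polymerase, had the reverse, with 1 PC3 peak at 46778303 to 46780218 on chromosome 11 (minus strand, fold 3.89, p of 3.97e-07). ASPM had none in either line.

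Of 12 centrosome scaffold genes, 6 had a peak in LNCaP and 2 in PC3, where the shares over all protein-coding genes were 5.62% and 1.83%. At the p-values of the PC3 list, 2 were left in LNCaP (AKAP9 and CEP250) beside 2 in PC3 (CEP250 and NIN). CEP250, a linker between centrioles (chromosome 20, 35455165 to 35519280), had 11 LNCaP peaks with folds from 4.21 to 28.3. Its peak at 35475601 to 35476478, on the plus strand, had the largest LNCaP fold of the group, 28.3, but a p of 0.000604 (FDR 0.00160), which ranked number 990 in the list. The peak with its smallest p, 1.14e-07, lay at 35503890 to 35504065 with a fold of 18.8. PCNT, a scaffold of the pericentriolar material (chromosome 21, plus strand), had 9 LNCaP peaks with folds of 10.1, 15.5, 7.86, 4.02, 9.88, 5.41, 3.16, 5.59 and 5.19 along the gene from 46349022 to 46432057. The smallest p among them was 0.000275, higher than any p of a PC3 peak.

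NIN, which anchors minus ends at the mother centriole (chromosome 14, 50719763 to 50831503, minus strand), was the only gene besides DYNC1H1 with more peaks in PC3 than in LNCaP among genes with a peak in both. Its LNCaP folds were 5.00, 6.12 and 6.42, and its 6 PC3 folds ran from 3.36 to 3.94. All LNCaP folds were above the PC3 folds on KIF1B, TACC2, MAP4 and MAP7D1 too. On the other genes with a peak in both lines the folds overlapped. The share over all genes was not computed, and the folds of the lists were made separately. The peak at 50758532 to 50759883 had the same bounds in both lines, with a fold of 6.12 (p of 0.00112) in LNCaP and 3.81 (p of 2.48e-08) in PC3. AKAP9, which anchors kinase A at the centrosome and Golgi (chromosome 7, plus strand), had 3 LNCaP peaks. One of them, 51 bp at 92038662 to 92038712, had a fold of 20.0, a p of 4.12e-13 and an FDR of 3.27e-11. ODF2, a protein of the centriole's appendages, had 6 LNCaP peaks with folds from 3.14 to 8.37, and CEP170B had 3 with folds of 16.4, 8.25 and 10.3. CEP164, which docks centrioles at the membrane when cilia form, had 2 LNCaP peaks side by side, with folds of 8.25 (p of 2.85e-05) and 24.8 (p of 0.000156). CEP131, CEP152, CEP170, CEP192, CEP350, CNTRL and CEP290 had none in either line.

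Of the 5 genes for proteins of the microtubule lattice, MAP1B, MAP4 and MAP7D1 had peaks in LNCaP and PC3, and MAP1A and MAP1S in neither. Over all protein-coding genes, 1.16% had a peak in both lines. None of the LNCaP peaks of MAP1B, MAP4 and MAP7D1 had a p as small as those of the PC3 list. MAP1B, best known from neurons (chromosome 5, 72107475 to 72209565, plus strand), had 4 LNCaP peaks with folds of 6.04, 5.42, 12.4 and 10.1 between 72194926 and 72196426. The PC3 peaks at 72194751 to 72195826 (fold 8.87, p of 2.19e-48) and 72195851 to 72196876 (fold 9.48, p of 1.14e-49, FDR 6.52e-48) covered all 4. The latter had the smallest PC3 p of the group and ranked number 18 of 1033 by p. MAP1B peaks of both lines lay in a narrow window between 85.7 and 90.3% of the gene's length. MAP7D1, which helps kinesin-1 onto microtubules (chromosome 1, plus strand), had LNCaP folds of 6.49, 3.84 and 4.26 and a PC3 fold of 3.67 at 36178501 to 36179726. MAP4, the widely expressed lattice protein (chromosome 3, minus strand), had LNCaP folds of 3.92 and 4.94 and a PC3 fold of 3.77, but its LNCaP and PC3 peaks shared only 1 bp, at 47872094.

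Of the 5 genes for proteins of the filament ends, 3 had LNCaP peaks and 0 had PC3 peaks. Over all protein-coding genes the shares were 5.62% and 1.83%, so 0 of 5 in PC3 is near the share of all genes. Only CLIP1 had a LNCaP p as small as those of the PC3 list. CAMSAP1 and CAMSAP3, which cap minus ends, had LNCaP folds of 4.56 and 5.15, and of 4.42. The midpoint of a 76 bp CAMSAP1 peak at 135907020 to 135907095 on chromosome 9 (minus strand) lay at 0.493% of the gene's length. No other peak midpoint in the group lay nearer to a gene start. By its near edge the CAMSAP3 peak, 7596051 to 7605301 on chromosome 19 (plus strand), was closer to its gene start at 7595863. CLIP1, which tracks growing plus ends, had 3 LNCaP peaks with folds of 9.85, 4.52 and 5.86, and a smallest p of 1.06e-06. CLASP1 and CLASP2, which stabilise plus ends, had none. Their relatives CAMSAP2 and CLIP2, from the wider list, had peaks in PC3 and not in LNCaP: CAMSAP2 had 3, with folds of 2.77, 2.53 and 2.55, and CLIP2 had 1, with a fold of 9.26.

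**Figure D4:**
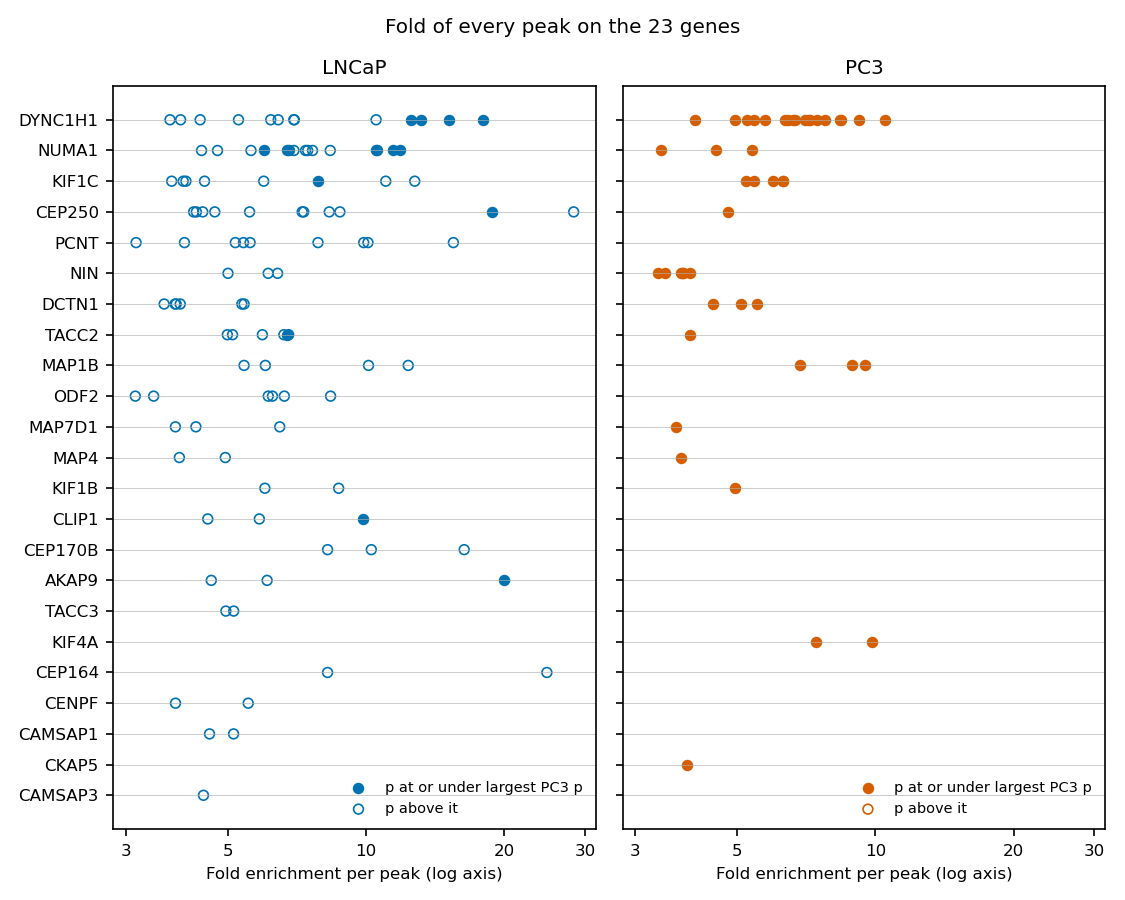
Authors' fold enrichment of every peak (x axis, log scale) for each of the 23 genes, LNCaP left and PC3 right; filled circles are peaks with a p at or under the largest p in the PC3 list. The PC3 folds end at 10.5, while LNCaP folds reach 28.3 on CEP250 and 24.8 on CEP164, both open circles.

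The p-values admitted to each list differed, and this touches every count that sets the lines side by side. LNCaP peaks were listed up to a p of 0.0178, PC3 peaks only up to 1.59e-05. At or under the latter, LNCaP kept 16 of its 106 peaks, on 7 genes: AKAP9, CEP250, CLIP1, DYNC1H1, KIF1C, NUMA1 and TACC2. PC3 kept all 46, on 13. The order of the lines was thus reversed, with 7 of 44 genes in LNCaP and 13 in PC3. Over all protein-coding genes the shares were 1.33% and 1.83%. A peak in both lines was left on 5 genes, but on CEP250 and TACC2 the peaks of the lines did not overlap. On CEP250 they lay at 35503890 to 35504065 (LNCaP, plus strand) and 35477852 to 35481214 (PC3, minus strand). On TACC2 they lay at 122249608 to 122254059 (LNCaP) and 122237998 to 122248650 (PC3). The share of all genes with a peak in both at this limit was not computed. Of the 10 genes with a peak in LNCaP only, 2 (AKAP9 and CLIP1) had a LNCaP p that the PC3 list would have admitted. The LNCaP p-values of the other 8 were all larger. Why these genes are not in the PC3 list was not tested.

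Folds of the group were moderate within each list. The median was 6.11 in LNCaP (exact binomial 95% interval of the median 5.54 to 6.74, 106 peaks) and 5.49 in PC3 (4.94 to 6.61, 46 peaks), beside 5.21 over the other 2510 LNCaP peaks and 5.74 over the other 987 PC3 peaks. The intervals given here and below treat peaks as independent, which peaks on 1 gene are not. Without DYNC1H1 the median was 6.02 in LNCaP and 4.86 in PC3, the latter below its interval. The folds of the lists were made separately and were not tested against each other. Peaks on the 44 genes had a median length of 437 bp in LNCaP, against 964.5 bp for other peaks, and of 770 bp in PC3, against 924 bp, introns included. Genes of the group with a LNCaP peak often had several: 14 of 21 (66.7%) had at least 3, against 26.5% of other genes with a peak and 26.9% of those weighted to the same classes of span. In PC3 this was 6 of 13 (46.2%), against 36.4% and 38.3%. Each listed peak counts as separate here. Neighbouring peaks of the group lay exactly 25 bp apart 12 times in LNCaP and 5 times in PC3, and joining them left 94 and 41 stretches. Peak numbers per gene and lengths were not compared with other genes after joining.

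Peaks of the group met a peak of the other line, on the same strand and by 1 bp or more, in a larger share than other peaks did. In PC3, 35 of 46 (76.1%, Wilson 95% interval 62.1 to 86.1%) met a LNCaP peak, against 43.0% of the 987 other peaks. In LNCaP it was 41 of 106 (38.7%, 29.96 to 48.2%), against 20.6% of 2510. These intervals cover counting error only, and peaks on 1 gene are not independent. Without DYNC1H1 the shares were 67.9% in PC3 and 32.3% in LNCaP, and with 50% of both peaks required they fell to 30.4% and 13.2%. When only LNCaP peaks with a p as small as those of PC3 were kept, the PC3 share was 19.6%. Other peaks were not counted under the 50% rule or this p limit, so the shares given for other peaks are no baseline there. The genes were chosen with results of these data known, so the larger share is a description. By gene, 11 of the 13 PC3 genes (84.6%) also had a LNCaP peak, against 62.5% of 352 other PC3 genes, and 11 of the 21 LNCaP genes (52.4%) a PC3 peak, against 20.0% of 1101. Across the 46 overlapping pairs on the 11 genes, the fold was higher in LNCaP in 26, and the p was smaller in PC3 in 40. The count for p is largely set by the lists, which admit a p up to 0.0178 in LNCaP and 1.59e-05 in PC3. A peak can be in several pairs, and pairs on other genes were not counted. The only MAP4 pair shares 1 bp. If starts count from 0, that pair only abuts and would leave these overlap counts.

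Position along the gene, read in the gene's direction, was compared over 3 equal parts of the gene span. The last part held 59 of 106 LNCaP peaks (55.7%, Wilson 95% interval 46.2 to 64.8%) and 23 of 46 PC3 peaks (50%, 36.1 to 63.9%), against 46.4% and 57.1% of the peaks on other genes. The first part held 12.3% and 6.52%, against 20.0% and 15.4%. No start window, from 250 bases before to 50 after an annotated gene start, of the 39 genes with such a window was met by a peak on the gene's strand. Over all start windows, 0.429% were met in LNCaP and 0.106% in PC3. Midpoints of all NUMA1, MAP1B, MAP4 and MAP7D1 peaks lay in the last part, and those of all NIN and KIF1B peaks in the middle part.

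A few of these genes carried peaks on both strands. The library kit was stranded, per the labels' protocols, and each peak is listed with a strand. For the genes with a strand in the reference table, 83 of 92 LNCaP peaks (90.2%, Wilson 95% interval 82.4 to 94.8%) and 42 of 45 PC3 peaks (93.3%, 82.1 to 97.7%) were on the strand of the gene, against 97.8% and 97.2% of peaks on other genes. NUMA1 held 6 of the 9 opposite-strand peaks of LNCaP, and without it 74 of 77 LNCaP peaks (96.1%) and 40 of 42 PC3 peaks (95.2%) were on the strand of the gene. The 12 opposite-strand peaks of both lines lay on NUMA1, DYNC1H1, KIF1C and ODF2. CEP250, whose strand the table does not give, had a minus-strand peak in each line beside 10 plus-strand peaks in LNCaP. All 14 of these peaks met an annotated long noncoding RNA gene of the peak's strand: NUMA1-AS1, LOC107984661, KIF1C-AS1, ODF2-AS1 and CEP250-AS1. On other genes, 25 of 43 opposite-strand peaks in LNCaP (58.1%) and 9 of 21 in PC3 (42.9%) met an annotated gene of their strand. Those counts take a gene of any type, and only peaks within a single protein-coding gene whose strand is given. The 14 include CEP250, several peaks on NUMA1-AS1 and peaks listed in both lines, so the shares are not directly comparable. Of the genes with a strand, 9 hold an annotated gene of the other strand whole; 7 of these had any peak and 4 had an opposite-strand peak. TACC3, CLIP1 and NIN, the other 3, had peaks on their own strand only.

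NUMA1-AS1 (chromosome 11, 72014291 to 72020919, plus strand) lies near the end of NUMA1. Along it LNCaP had 6 plus-strand peaks, with folds of 6.74, 6.97, 7.65, 7.46, 11.5 and 4.38, and PC3 had 1, at 72018211 to 72018986 with a fold of 3.42 (p of 1.20e-08). The first LNCaP peak, 72014290 to 72014765 (p of 6.76e-08), began 1 bp before the annotated start of NUMA1-AS1. Peaks of the NUMA1 strand lay across from every one of these 7. The pair at 72015690 to 72016040 (plus, fold 7.65) and 72015687 to 72016037 (minus, fold 7.38) was of equal length, 351 bp, and offset by 3 bp. How far reads of one strand were counted on the other was not tested.

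**Figure D5:**
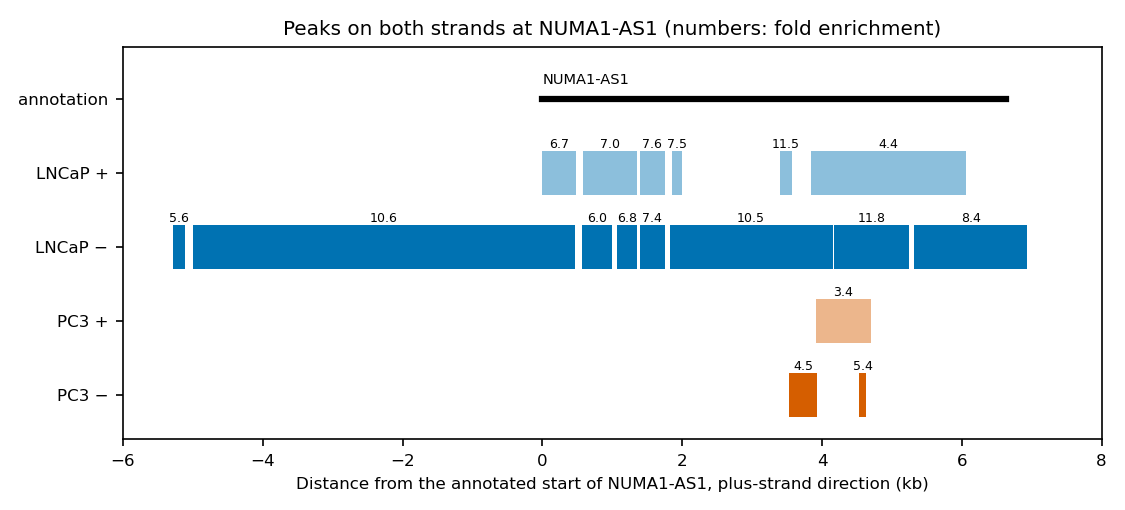
Peaks on the plus strand (pale) and minus strand (dark) around NUMA1-AS1, as distance from its annotated start in kb (x axis), LNCaP in blue and PC3 in orange; the number above a box is its fold, and the black bar is the annotated gene. Plus-strand LNCaP peaks begin at the start of NUMA1-AS1 and end within it, while LNCaP minus-strand peaks, which are those of the NUMA1 strand, run past both of its ends.

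Outside NUMA1, the opposite-strand peaks present in both lines had the same bounds in both. On KIF1C the minus-strand peak at 5019638 to 5020085 lay whole within KIF1C-AS1 (5019214 to 5020093) and ended 8 bp from its start, with a fold of 4.05 in LNCaP (p of 0.00824) and 5.98 in PC3 (p of 1.34e-07). On CEP250 the minus-strand peak at 35477852 to 35481214, whole within CEP250-AS1 (35471655 to 35490982), had a fold of 4.27 in LNCaP (p of 0.00148) and 4.77 in PC3 (p of 1.33e-06). It was the only PC3 peak within CEP250, so the count of CEP250 among the 11 shared genes rests on it. On DYNC1H1 the minus-strand peak at 102036689 to 102050528 met LOC107984661 (102036315 to 102039037) in part and ran far past its start, with a fold of 6.20 in LNCaP (p of 0.00296) and 5.25 in PC3 (p of 9.33e-07). These 3 made up most of the 5 peaks on the 44 genes with identical bounds in both lists. On ODF2 the minus-strand peak at 128469206 to 128473005 (LNCaP only, fold 6.25, p of 0.00178) lay whole within ODF2-AS1 (128468925 to 128473012) and ended 7 bp from its start.

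The start windows of 3 of these noncoding genes are shown because an opposite-strand peak begins in them; the bases inside the peak are in capitals. They are RefSeq sequences on GRCh38.p14, each 300 bases, in the direction of the noncoding gene, with its annotated start at base 251. The window of NUMA1-AS1 is chr11:72014041-72014340 on the plus strand, that of KIF1C-AS1 chr17:5020044-5020343 on the minus strand and that of ODF2-AS1 chr9:128472963-128473262 on the minus strand. The peaks take in the last 51, 42 and 43 bases.
NUMA1-AS1: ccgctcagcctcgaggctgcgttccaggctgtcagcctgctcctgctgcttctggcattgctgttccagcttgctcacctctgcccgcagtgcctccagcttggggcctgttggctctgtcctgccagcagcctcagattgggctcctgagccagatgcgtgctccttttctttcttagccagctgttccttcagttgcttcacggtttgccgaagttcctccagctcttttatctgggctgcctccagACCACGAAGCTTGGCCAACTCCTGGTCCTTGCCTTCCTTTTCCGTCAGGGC
KIF1C-AS1: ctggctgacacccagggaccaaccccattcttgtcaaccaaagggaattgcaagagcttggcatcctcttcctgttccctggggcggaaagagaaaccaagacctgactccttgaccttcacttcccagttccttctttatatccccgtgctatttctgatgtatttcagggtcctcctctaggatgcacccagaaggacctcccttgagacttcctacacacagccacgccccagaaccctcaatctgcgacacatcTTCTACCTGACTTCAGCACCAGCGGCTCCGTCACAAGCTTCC
ODF2-AS1: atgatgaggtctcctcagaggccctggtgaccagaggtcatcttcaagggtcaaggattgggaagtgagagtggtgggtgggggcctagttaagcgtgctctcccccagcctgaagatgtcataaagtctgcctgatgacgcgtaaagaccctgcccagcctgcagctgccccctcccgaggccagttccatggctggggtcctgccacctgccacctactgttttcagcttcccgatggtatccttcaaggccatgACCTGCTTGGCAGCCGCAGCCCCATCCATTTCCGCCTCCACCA

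The capitals thus begin close to base 251 in all 3 windows, at bases 250, 259 and 258. GGACT, a common core of the sequence that METTL3 methylates, was searched for on both strands; 44.2% of 35116 start windows hold it. It occurred 0 times in these 3 windows, of which only 42 to 51 bases lie inside a peak. It occurred 1 time, on the strand of the noncoding gene, in the window of LOC107984661 (chr14:102038988-102039287, minus strand), all 300 bases of which lie inside the DYNC1H1 peak. The 57 start windows of the protein-coding genes themselves, available for 39 of the 44, are not shown; 0 of them met a listed peak of either strand.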

How the data were processed

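METTL3 IP and input RNA was measured in LNCaP and PC3, with 2 libraries per group. Per the submitters' processing notes, fastp, STAR 2.5.3a, bedtools and deepTools were used with build hg38; the peak caller, filters and handling of replicates are not given in the sources used here. Per the file headers, the authors deposited per peak a linear fold ratio, a p-value with its FDR, and a score that equals the negative log2 of that FDR. Coordinates are printed as listed. Of 4 peaks that start within 5 bp of an annotated gene's start coordinate, 3 start 1 bp before it, so starts may count from 0.

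Gene spans came from a RefSeq table of GRCh38.p14 and gene strands from its table of start windows, which gave a strand for 39 of the 44 genes; KIF21B, KIF26B, KIF13B, CEP170B and CEP250 are not in it, and the peak's own strand set the direction for their peaks. Like-length shares weight other protein-coding genes over classes bounded at 25, 50, 100, 200 and 400 kb. No test was made, since the lists hold no values per library. Genes, roles and the wider list of 143 genes were chosen with earlier results of these data known. Every one of the genes with a peak is named, with full values for the peaks of largest fold and smallest p, for the genes with most peaks and for overlapping peaks; of the wider list, genes with peaks in both lines and up to 5 of large fold per line. Assignment, strand and overlap were tested on 200 simulated peaks, all placed correctly. Python 3.11.15, pandas 2.3.3 and scipy 1.17.1 were used.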

Additional observations from a re-analysis of the deposited data

How the results depend on the processing

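No paired analysis was possible because each list gives 1 value per peak and none for a library, and so no library could be left out. Depth is unknown, so what it limits cannot be said. Of 63 alternative values, 46 stayed within 1.5 times a count or within the 95% interval of a share or median, and 17 moved. Some of the 46 could not move, because the largest PC3 p removes nothing from the PC3 list. At that limit its genes, peaks, like-length share, share in the last part and median fold are unchanged by construction.

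With LNCaP peaks limited to the p-values of the PC3 list, LNCaP had 16 peaks on 7 of the genes, 5 genes had a peak in both lines, the LNCaP median fold was 11.0, its share of peaks in the last of 3 parts of the gene 68.8%, the PC3 share of overlapping peaks 19.6% and the LNCaP like-length share 2.06%. A fold of at least 4 left 8 genes in PC3 and 7 in both lines. Requiring 50% of both peaks gave overlaps of 13.2% in LNCaP and 30.4% in PC3. With 10 classes of span the LNCaP like-length share was 9.35%. The interval for like-length shares treats the weighted share as a plain share of all 19930 other genes, so it is only a rough bound. Among other genes with a peak in the other line, 61.2% of like-length genes had a LNCaP peak and 21.9% a PC3 peak, beside the 84.6% and 52.4% of the centrosome, spindle and motor genes. The largest fold of each gene had a median of 8.72 in LNCaP. Without DYNC1H1, an alternative chosen after seeing the data, as was leaving out genes with no strand given, the PC3 median fold was 4.86. Without NUMA1, also chosen after seeing the data, 96.1% of LNCaP peaks were on the strand of the gene. Fewer admitted peaks follow from the construction of the p and fold limits; otherwise the cause was not tested.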
